A study of Mus musculus with 9 samples.

Results

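The ephrin, semaphorin, Slit and netrin guidance genes comprise the ligands that steer growing axons and migrating cells, together with their receptors. They were chosen by gene symbol from the 55704 rows of an expression table of mouse neural stem cells (NSCs), and 69 genes matched: 5 ephrin-A and 3 ephrin-B ligands, 9 EphA and 5 EphB receptors, 7 class 3 semaphorins, 13 semaphorins of classes 4 to 7, 9 plexins, 2 neuropilins, 3 Slits, 4 Robo receptors, 4 netrins, and the 5 netrin receptors of the Unc5 family and Dcc. The rule used gene symbols and no measured value, but it was set with earlier results of these data known. RNA-seq covered 9 libraries in 3 groups of 3. NSCs came from the subventricular zone (SVZ), the stem cell niche along the lateral ventricle, of C57BL/6 mice aged 8 to 9 weeks, with 2 female and 2 male mice pooled for each isolation, and had been passaged at least 3 times with bFGF and EGF (20 ng/mL each). All groups were first attached to poly-L-ornithine and laminin in that medium for 16 to 18 hours. The bFGF/EGF-treated NSCs were collected at day 0 as the activated control. For the bFGF/BMP4-treated NSCs the medium then held 20 ng/mL bFGF and 20 ng/mL BMP4, and for the BMP4-treated NSCs 20 ng/mL BMP4 without bFGF or EGF, and both were collected at day 6. The comparisons asked how each of these media, both used to induce quiescence, changed gene expression, and whether keeping bFGF beside BMP4 made a difference. A difference from the bFGF/EGF group includes 6 days in culture, and that cannot be told apart from the change of growth factors. How the replicate numbers relate to separate isolations is not given, so the p-values measure the spread between these libraries.

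Ephrins are bound to the cell surface, the A class by a lipid anchor and the B class by a transmembrane segment, and signal through Eph receptor tyrosine kinases on the neighbouring cell and back into their own cell. Semaphorins of class 3 are secreted and act through a neuropilin that binds the ligand and a plexin that signals, whereas most other semaphorins are membrane proteins that bind plexins directly. Slits are secreted ligands of Robo receptors, and netrins are laminin-related proteins that attract through Dcc and repel through Unc5 receptors. In the SVZ, Eph receptors and ephrins take part in the control of progenitor proliferation, and Slits guide the neuroblasts that migrate to the olfactory bulb.

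Between 15892854 and 17419822 fragments lay on genes per library. Levels are given as FPKM, fragments scaled by transcript length and library size, which allow levels to be compared between genes. Where none of a group's libraries held more than 3 fragments of a gene, it was taken as not detected in that group, a limit that covers counting error only, and a fold change against such a group is a lower bound, the mean of the other group over the FPKM of 3 fragments in a library. A gene was called higher or lower when its adjusted p (limma, Benjamini-Hochberg over 20207 genes tested) was at most 0.05 and its fold change at least 2, and differences are log2 differences ± SE on the scale of log2(FPKM + 0.1), which understates the change of low genes. Of 12 NSC markers, 11 were at 1 FPKM or more in the bFGF/EGF and bFGF/BMP4 groups and 12 in the BMP4 group. Their summed level was 1745 to 1868, 763 to 864.5 and 1578 to 2006 FPKM in these groups, and 1075 to 1221, 600 to 682 and 804 to 977 without Vim. In bFGF/BMP4 against bFGF/EGF, 2 of them (16.7%) were higher and 5 (41.7%) lower, beside 16.5% and 14.1% of all genes tested. In BMP4 against bFGF/EGF, 4 (33.3%) were higher and 2 (16.7%) lower, beside 21.3% and 15.4%. In BMP4 against bFGF/BMP4, 5 NSC markers (41.7%) were higher and 0 lower, beside 8.41% and 5.14%. Single markers differed in direction. Nes fell from 151 to 3.55 FPKM with bFGF/BMP4 and to 15.8 with BMP4. Hes5 went the other way, from 1.44 to 26.9 and 7.64, as did Pax6, from 1.53 to 4.80 and 7.16. Sox2 changed less, from 167 to 137 with either treatment. The other marker lists also moved with the groups. The summed level of 10 astrocyte genes was 194 to 268 FPKM in the bFGF/EGF, 707.5 to 818.5 in the bFGF/BMP4 and 3776 to 4674 in the BMP4 libraries. Without Gfap, the other 9 summed to 194 to 268, 686 to 802 and 1595 to 1635. In BMP4 against bFGF/BMP4, 6 astrocyte genes (60%) were higher and 2 (20%) lower, beside 8.41% and 5.14% of all genes tested. For 9 genes of oligodendrocyte precursors (OPCs) the sums were 1594 to 2283, 1351 to 1852 and 229 to 446, and 491 to 691, 238 to 383 and 37.7 to 77.3 without Olig1. For 9 ependymal genes they were 9.18 to 13.6, 11.8 to 12.5 and 61.2 to 74.8, and 1.862 to 3.055, 1.92 to 2.33 and 8.42 to 15.9 without Foxj1. The 15 neuron and neuroblast genes summed to 91.2 to 113, 70.7 to 77.2 and 174 to 245.5. In this last list the higher sum with BMP4 lay mostly in Tubb3, and the other 14 genes summed to 66.2 to 95.5, 52.5 to 59.7 and 66.6 to 87.8 FPKM. In BMP4 against bFGF/BMP4, 5 of 11 tested (45.5%) were higher and 1 (9.09%) lower, beside 8.41% and 5.14% of all genes. Dlx2 was at 1.98, 7.53 and 18.8 FPKM in the 3 groups, and Map2 at 56.2, 30.5 and 34.1. Of 12 microglial genes 7, of 12 mural and fibroblast genes 6 and of 10 oligodendrocyte genes 2 had at most 3 fragments in every library, and these lists summed to at most 12.2, 26.6 and 60.3 FPKM in any library. In bulk RNA, fewer cells of a type and less RNA per cell cannot be told apart, and the part of these markers in the values of the guidance genes was not tested.

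All 69 guidance genes had fragments in at least 1 library, and 62 passed the filter of a mean of 0.1 FPKM over all libraries and were tested. In bFGF/BMP4- against bFGF/EGF-treated NSCs, 21 of the 62 were higher, beside 16.5% of all genes tested, and 9 were lower, beside 14.1%. In BMP4- against bFGF/EGF-treated NSCs, 22 were higher, beside 21.3% of all genes, and 14 lower, beside 15.4%. In BMP4- against bFGF/BMP4-treated NSCs, 9 were higher, beside 8.41% of all genes, and 13 lower, beside 5.14%. Counted by adjusted p alone, with no fold threshold, the numbers were 24 higher and 18 lower (25.0% and 23.6% of all genes), 26 higher and 17 lower (29.6% and 25.3%), and 14 higher and 16 lower (12.2% and 8.89%). The median log2 difference of the genes tested was 0.29, 0.21 and 0.03 in these comparisons, beside 0.06, 0.10 and 0.00 over all genes. No class with more than 3 tested genes had all of them called in the same direction, and the heat map shows the levels of all members. Smaller classes could go one way. Both of the 2 neuropilins were higher in both treated groups, and of 3 netrins tested 0 were called higher in any comparison. The comparisons with the bFGF/EGF group share its 3 libraries.

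**Figure D1:**
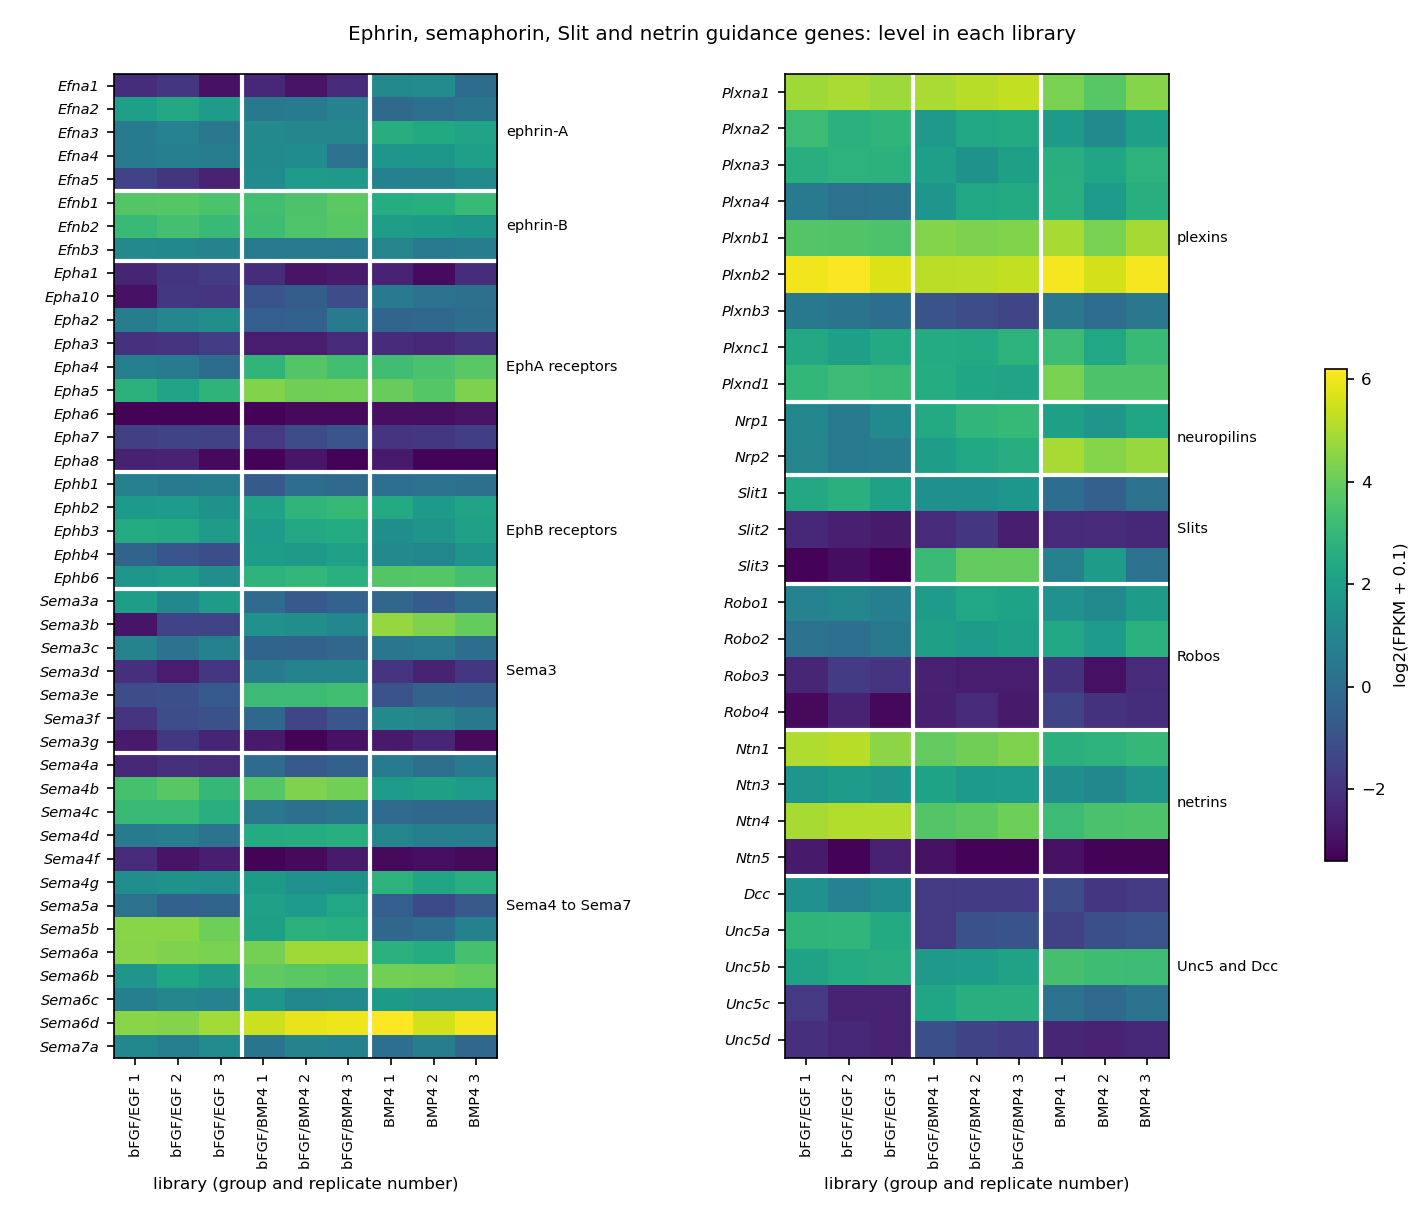
Level of each of the 69 guidance genes (rows, grouped by class) in each of the 9 libraries (columns, by group and replicate number) as log2(FPKM + 0.1), from dark (low) to yellow (high). Sema6d and Plxnb2 were the highest rows, and Slit3, Sema3e and Unc5c were bright in the bFGF/BMP4 libraries, Sema3b and Nrp2 in the BMP4 libraries.

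Among the ephrin-A ligands, the member that led the class differed in every group: Efna2 in bFGF/EGF-, Efna5 in bFGF/BMP4- and Efna3 in BMP4-treated NSCs. Efna2 had 3.95, 5.10 and 3.53 FPKM in the bFGF/EGF libraries, 1.29, 1.41 and 1.69 in the bFGF/BMP4 libraries and 0.838, 0.985 and 1.17 in the BMP4 libraries. It fell in both treated groups (-1.45 ± 0.21, limma adjusted p = 2.6e-04 and -1.96 ± 0.21, limma adjusted p = 2.6e-05), with no overlap with the control libraries. Efna5, a ligand best known from topographic mapping in the visual system, had 0.263, 0.157 and 0.0842 FPKM in the bFGF/EGF, 2.22, 3.52 and 3.41 in the bFGF/BMP4 and 1.68, 1.64 and 2.14 in the BMP4 libraries. It rose in both (3.58 ± 0.30, limma adjusted p = 8.1e-06 and 2.89 ± 0.30, limma adjusted p = 2.2e-05), and although every bFGF/BMP4 library was above every BMP4 library, that difference did not pass the test (-0.70 ± 0.30, limma adjusted p = 0.13). Efna1 and Efna3 behaved differently and were highest with BMP4 alone. Efna1 had 4, 5 and 1 fragments in the bFGF/EGF, 3, 1 and 3 in the bFGF/BMP4 and 61, 67 and 27 in the BMP4 libraries, or a mean of 1.74 ± 0.74 FPKM (SD, n = 3) with BMP4. Against the bFGF/BMP4 group, where it was not detected by the limit of 3 fragments, it was at least 17.2-fold higher (3.26 ± 0.44, limma adjusted p = 5.3e-04), and the difference from the bFGF/EGF group was 3.09 ± 0.44, limma adjusted p = 2.0e-04. Efna3 was at 1.33, 1.71 and 1.26, then 2.10, 1.95 and 1.90, then 5.95, 5.28 and 4.46 FPKM in the same order of groups, and every BMP4 library was above all others (1.80 ± 0.18, limma adjusted p = 1.6e-05 against bFGF/EGF, 1.35 ± 0.18, limma adjusted p = 4.3e-04 against bFGF/BMP4). Efna4 rose in BMP4- against bFGF/EGF-treated NSCs (1.12 ± 0.27, limma adjusted p = 0.0053), from 1.49 ± 0.092 to 3.38 ± 0.52 FPKM.

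Efna1, Efna3 and Efna4 are neighbours on the minus strand of chromosome 3 in mouse build GRCm39, from position 89179037 to 89245373, with gaps of 32.8 kb and 10.4 kb between them. All 3 were higher in BMP4- than in bFGF/EGF-treated NSCs. The 1 other gene tested in that interval, Gm15998, was called in none of the comparisons. It did not exceed 0.283 FPKM in any library and so says little about the interval. This neighbourhood, like those of the semaphorin genes, was looked at after the values had been seen.

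Of the ephrin-B ligands, Efnb2, best known as a marker of arterial endothelium, was lowest with BMP4 alone. Its level was 8.26, 10.3 and 8.59 FPKM in the bFGF/EGF, 9.32, 11.5 and 13.0 in the bFGF/BMP4 and 3.90, 3.47 and 3.13 in the BMP4 libraries. The BMP4 libraries did not overlap with the others, and Efnb2 fell against both (-1.35 ± 0.16, limma adjusted p = 5.6e-05 and -1.66 ± 0.16, limma adjusted p = 6.5e-05), whereas the bFGF/BMP4 and bFGF/EGF libraries overlapped (0.31 ± 0.16, limma adjusted p = 0.14). Efnb1 also had its lowest mean with BMP4: 11.98 ± 0.95, 11.5 ± 1.9 and 6.72 ± 1.4 FPKM, with differences under 2-fold. Efnb3 was at 1.92, 1.36 and 1.56 FPKM and was not called.

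Epha5 and Epha4 led the EphA receptors in both treated groups, with 61.5% and 32.5% of the summed level with bFGF/BMP4 and 54.0% and 38.0% with BMP4. Epha5 had 6.75, 4.51 and 7.06 FPKM in the bFGF/EGF, 20.7, 17.1 and 17.6 in the bFGF/BMP4 and 15.5, 12.6 and 19.5 in the BMP4 libraries. Epha4, a receptor for ephrins of both classes, was at 1.58, 1.41 and 0.885, then 7.23, 12.3 and 9.72, then 9.49, 10.8 and 13.2 FPKM. Both rose in bFGF/BMP4- (1.60 ± 0.20, limma adjusted p = 1.2e-04 for Epha5, 2.83 ± 0.25, limma adjusted p = 1.2e-05 for Epha4) and in BMP4-treated NSCs (1.37 ± 0.20, limma adjusted p = 2.7e-04 and 3.04 ± 0.25, limma adjusted p = 4.9e-06), and for both genes the libraries of the treated groups overlapped with each other. Epha10, which encodes a receptor without kinase activity, was lower in level and was highest with BMP4: 0.122 ± 0.078, 0.454 ± 0.11 and 1.11 ± 0.18 FPKM. The difference of Epha10 between the BMP4 and bFGF/BMP4 groups (1.14 ± 0.35, limma adjusted p = 0.042) was the call that held in the fewest settings: it was past the threshold in 6 of 16 other settings, and leaving out any single library of these groups raised the adjusted p to between 0.06 and 0.13. Epha2 was the EphA receptor that fell, from 1.96 ± 0.46 to 0.855 ± 0.42 and 0.813 ± 0.12 FPKM (-1.17 ± 0.31, limma adjusted p = 0.011 and -1.15 ± 0.31, limma adjusted p = 0.01), and these falls were under 2-fold without bFGF/BMP4 replicate 1 (-0.97 on the log2 scale) and without bFGF/EGF replicate 3 (-0.995, for BMP4).

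Ephb4, the receptor of ephrin-B2 on venous endothelium, had 0.710, 0.450 and 0.366 FPKM in the bFGF/EGF, 3.77, 3.40 and 4.12 in the bFGF/BMP4 and 2.04, 1.92 and 2.84 in the BMP4 libraries. It rose in both treated groups (2.70 ± 0.25, limma adjusted p = 1.5e-05 and 1.98 ± 0.25, limma adjusted p = 8.0e-05). The endothelial genes Cldn5 and Cdh5 had at most 3 fragments in every library of the series, and the 12 endothelial genes summed to 1.04 to 1.52 FPKM in the bFGF/EGF, 1.71 to 2.41 in the bFGF/BMP4 and 3.44 to 4.56 in the BMP4 libraries, led by Kdr in the treated groups, with 0.874 to 1.43, 0.873 to 0.991 and 0.480 to 0.762 FPKM for the 11 genes other than Kdr. These 11 did not move together. Vwf was at 0.0447, 0.397 and 0.107 FPKM and Pecam1 at 0.0167, 0.230 and 0.0428, whereas Egfl7 was at 0.592, 0.072 and 0.120 and Erg at 0.272, 0 and 0.0469. Of 5 endothelial genes tested, 2 (40%) were higher and 2 (40%) lower in bFGF/BMP4 against bFGF/EGF, beside 16.5% and 14.1% of all genes. Their part in the level of Ephb4 was not tested. Ephb6, another receptor without kinase activity, was at 2.99, 3.65 and 2.41, then 6.93, 7.74 and 6.32, then 12.4, 12.8 and 9.95 FPKM, and rose in bFGF/BMP4- (1.20 ± 0.17, limma adjusted p = 2.8e-04) and in BMP4-treated NSCs (1.93 ± 0.17, limma adjusted p = 8.6e-06). Ephb6 shares exon sequence with Trpv6, which did not exceed 0.407 FPKM. Ephb1, Ephb2 and Ephb3 were called in no comparison, although Ephb2 was above every control library in each bFGF/BMP4 library (3.28 against 6.58 FPKM, 0.94 ± 0.25, limma adjusted p = 0.012).

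**Figure D2:**
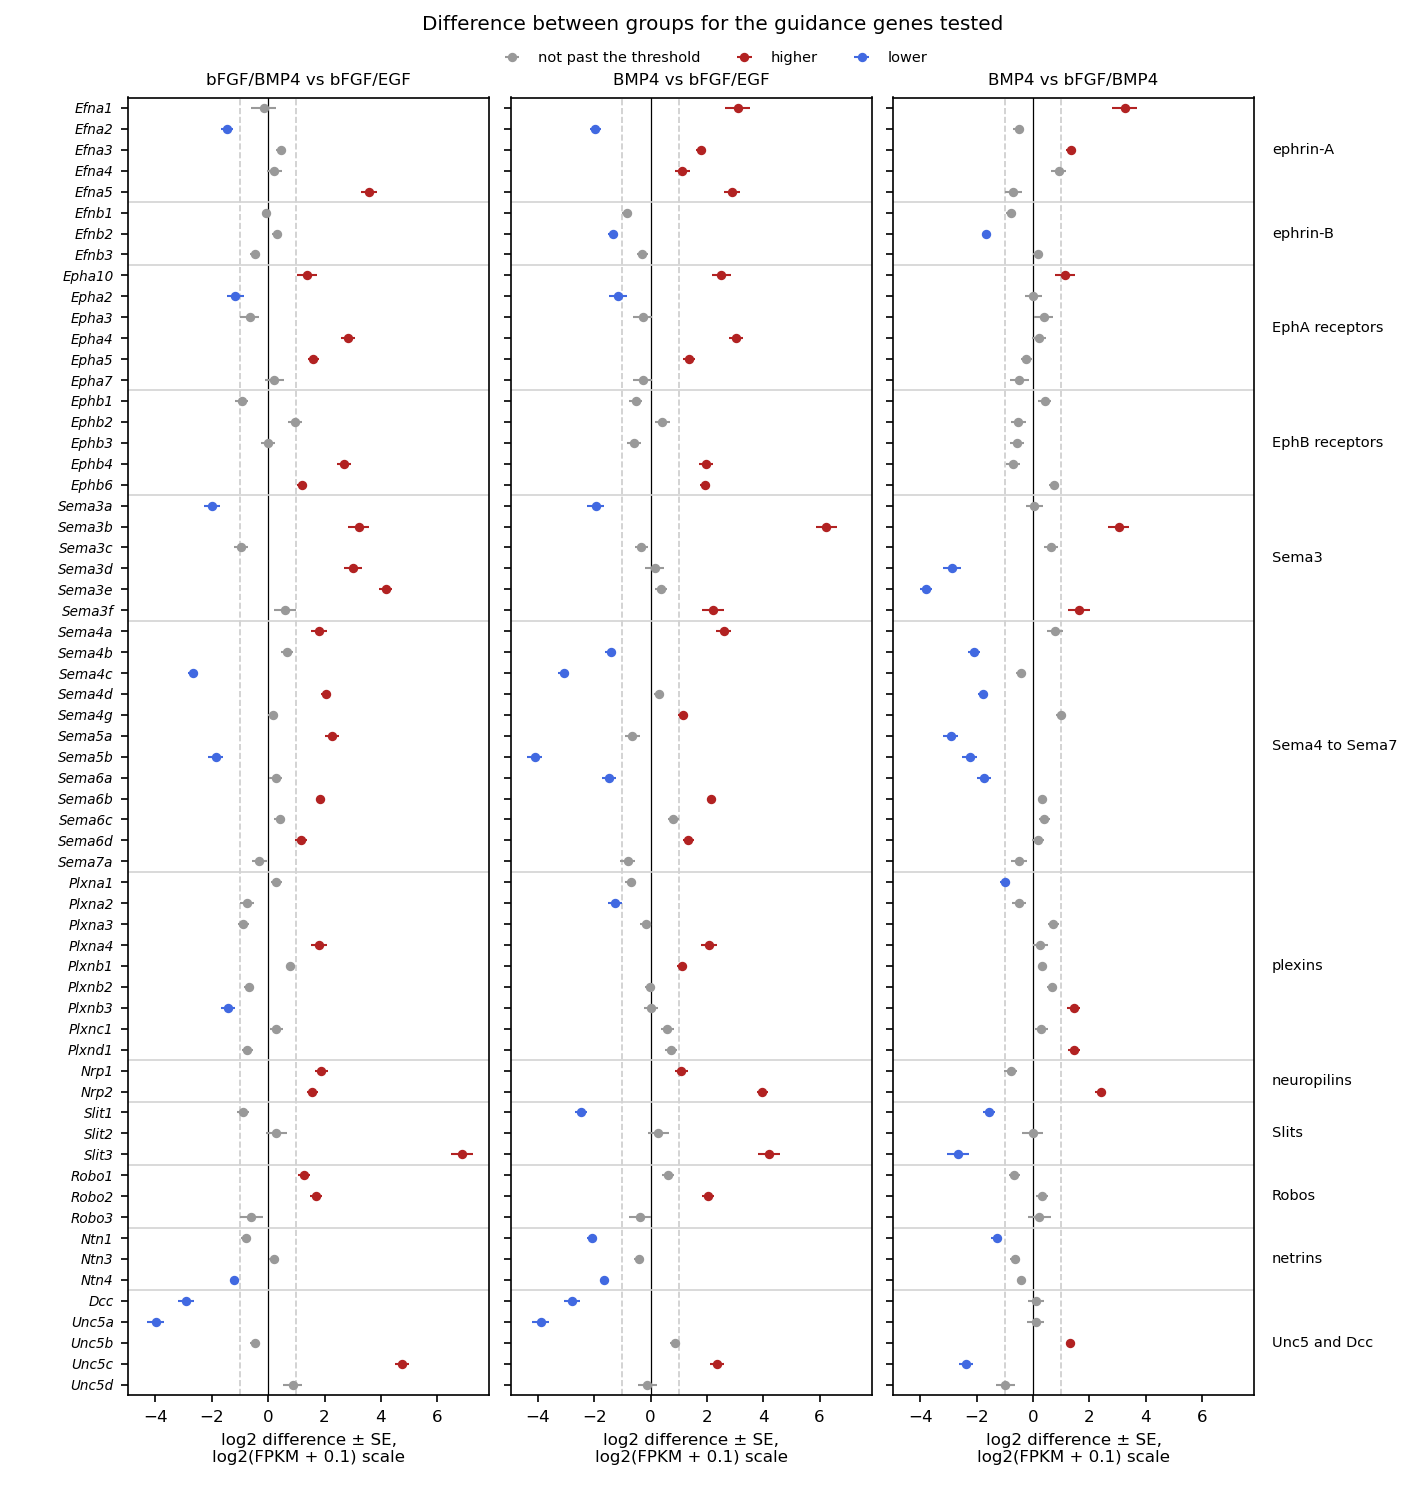
Log2 differences ± SE on the log2(FPKM + 0.1) scale of the 62 guidance genes tested, for the 3 comparisons of groups (panels). Red and blue points passed the threshold (higher and lower in the group named first), grey points did not, and dashed lines mark a 2-fold change. Slit3, Unc5c and Sema3e stood farthest to the right in the first panel, Sema3b in the second, and Sema3e farthest to the left in the third.

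The class 3 semaphorins fell into opposite profiles. Sema3a, the classical repellent of sensory axons, led in bFGF/EGF-treated NSCs with 3.77, 2.02 and 3.57 FPKM and was at 0.871, 0.531 and 0.662 in the bFGF/BMP4 and 0.750, 0.561 and 0.818 in the BMP4 libraries. It fell in both treated groups (-2.01 ± 0.29, limma adjusted p = 2.8e-04 and -1.96 ± 0.29, limma adjusted p = 2.5e-04). Sema3e, which binds Plxnd1 without a neuropilin, had 0.355, 0.381 and 0.524 FPKM in the bFGF/EGF, 8.94, 8.89 and 9.77 in the bFGF/BMP4 and 0.418, 0.692 and 0.620 in the BMP4 libraries. All 3 bFGF/BMP4 libraries stood above every other library, with differences of 4.17 ± 0.22, limma adjusted p = 5.0e-07 from bFGF/EGF and -3.80 ± 0.22, limma adjusted p = 5.0e-06 for BMP4 against bFGF/BMP4, while the bFGF/EGF and BMP4 libraries overlapped (0.37 ± 0.22, limma adjusted p = 0.19). Sema3d had the same profile at a lower level: 0.137, 0.0589 and 0.171, then 1.37, 1.82 and 1.80, then 0.165, 0.0862 and 0.176 FPKM, with 3.01 ± 0.33, limma adjusted p = 4.5e-05 for bFGF/BMP4 against bFGF/EGF and -2.87 ± 0.33, limma adjusted p = 1.8e-04 for BMP4 against bFGF/BMP4. Sema3c was not called (1.51, 0.711 and 1.17 FPKM).

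Sema3b and Sema3f, which bind Nrp2, had the opposite profile and were highest with BMP4 alone. Sema3b had 0.0369, 0.265 and 0.273 FPKM in the bFGF/EGF, 2.65, 2.43 and 2.01 in the bFGF/BMP4 and 25.4, 20.3 and 15.3 in the BMP4 libraries. The 3 groups did not overlap, and every step was called (3.21 ± 0.37, limma adjusted p = 6.4e-05 for bFGF/BMP4 against bFGF/EGF, 3.03 ± 0.37, limma adjusted p = 2.7e-04 for BMP4 against bFGF/BMP4). Sema3f was at 0.158, 0.353 and 0.392, then 0.802, 0.276 and 0.484, then 2.05, 1.87 and 1.29 FPKM, so the bFGF/EGF and bFGF/BMP4 libraries overlapped and the BMP4 libraries stood above both (2.23 ± 0.39, limma adjusted p = 7.5e-04 against bFGF/EGF, 1.63 ± 0.39, limma adjusted p = 0.013 against bFGF/BMP4). The last difference lost its call without bFGF/BMP4 replicate 2, BMP4 replicate 1 or BMP4 replicate 2, with log2 differences of 1.32, 1.51 and 1.57 and adjusted p up to 0.0613.

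Some of these genes are neighbours in the genome. Sema3d, Sema3a and Sema3e follow one another on the plus strand of chromosome 5 (Sema3d from 12433124 to 12638929, Sema3a from 13175288 to 13653578 and Sema3e from 14075290 to 14306719 in GRCm39), and Sema3a, between the other two, did not share their profile. Sema3b and Sema3f lie 72.2 kb apart on the minus strand of chromosome 9, from 107474872 to 107587674. Of 4 other genes tested in that interval, 3 (Gnai2, Slc38a3 and Gm19721) were also higher in BMP4- than in bFGF/EGF-treated NSCs, beside 21.3% of all genes tested. Slc38a3 was higher in bFGF/BMP4- than in bFGF/EGF-treated NSCs as well, beside 16.5% of all genes. None of the 4 was called between BMP4 and bFGF/BMP4. The 250 bases before the RefSeq start of Sema3d and Sema3e are printed because both genes were high in the bFGF/BMP4 group alone, and those of Efnb2 as a gene lowest in the BMP4 group. All are read 5′ to 3′ along the gene, from the RefSeq promoters of build GRCm38.p6, and were matched exactly to GRCm39 at chr5:12432883-12433132 (plus strand), chr5:14075040-14075289 (plus strand) and chr8:8711243-8711492 (minus strand). Capitals mark GGCGCC, a sequence known to bind the SMAD proteins that BMP receptors activate.
Sema3d: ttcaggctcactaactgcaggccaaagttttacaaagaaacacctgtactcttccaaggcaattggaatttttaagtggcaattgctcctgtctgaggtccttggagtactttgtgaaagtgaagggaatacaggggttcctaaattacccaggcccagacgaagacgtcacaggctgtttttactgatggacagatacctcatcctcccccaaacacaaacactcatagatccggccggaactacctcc
Sema3e: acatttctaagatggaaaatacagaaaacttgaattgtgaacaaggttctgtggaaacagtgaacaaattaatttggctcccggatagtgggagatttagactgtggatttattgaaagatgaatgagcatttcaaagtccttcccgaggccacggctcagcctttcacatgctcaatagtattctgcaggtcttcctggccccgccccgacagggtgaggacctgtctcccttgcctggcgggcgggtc
Efnb2: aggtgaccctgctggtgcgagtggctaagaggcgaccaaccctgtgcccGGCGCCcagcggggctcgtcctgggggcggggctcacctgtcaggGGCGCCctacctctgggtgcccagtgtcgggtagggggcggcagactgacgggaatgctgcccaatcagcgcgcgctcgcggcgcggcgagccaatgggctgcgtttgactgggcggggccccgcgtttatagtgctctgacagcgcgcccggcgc
The Sema3d and Sema3e windows hold 46.8% and 48% G or C and no GGCGCC, and the Efnb2 window 72% and 2 copies. The windows of the other genes highest in bFGF/BMP4 differed from these: Slit3, Sema5a, Unc5c and Sema4d hold 78.8%, 72%, 71.2% and 52% G or C. The Unc5c window holds GGCGCC. Promoter windows were found for 59 of the 69 guidance genes, and 13 of them (22.0%) hold GGCGCC, beside 9.59% of all 32841 windows, with a median of 64.8% G or C beside 52.4%. Each guidance gene counts with 1 of its windows, the one nearest its annotated start, out of 75 windows of these genes. The 32841 windows can hold several of a gene, so these shares and those of the other motifs are not of like units. The other motifs searched, each equal to its own reverse complement like GGCGCC so that 1 scan covers both strands, were TGANTCA (the AP-1 site, in 1.69% beside 6.75%), TGACGTCA (the CREB site, in 1.69% beside 1.55%) and CACGTG (the E-box of MYC and related factors, in 5.08% beside 6.02%). Of the 13 genes with GGCGCC, Ephb4, Ephb6, Sema6b and Unc5c rose in both treated groups, and Efna2, Sema5b and Unc5a fell in both. Efnb2, Plxna2 and Sema4b were called lower with BMP4 than in the bFGF/EGF group. Sema3c and Sema6c were not called, and Epha1 was not tested. A match of letters is a description of the window and was not tested as a binding site.

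Among the semaphorins of classes 4 to 7, Sema6d, a ligand of Plxna1, was the highest in every group, at 22.6, 21.4 and 29.1 FPKM in the bFGF/EGF, 44.1, 58.9 and 62.1 in the bFGF/BMP4 and 74.0, 46.9 and 66.1 in the BMP4 libraries. It rose in both treated groups (1.17 ± 0.20, limma adjusted p = 9.0e-04 and 1.34 ± 0.20, limma adjusted p = 3.0e-04), which overlapped with each other. Sema6b was at 3.73 ± 0.82, 13.4 ± 1.1 and 16.8 ± 1.2 FPKM and rose likewise (1.84 ± 0.16, limma adjusted p = 1.0e-05 and 2.16 ± 0.16, limma adjusted p = 2.5e-06), as did Sema4a, a semaphorin studied mainly in immune cells (0.118, 0.678 and 1.22 FPKM, 1.81 ± 0.28, limma adjusted p = 4.3e-04 and 2.59 ± 0.28, limma adjusted p = 3.0e-05). Sema5b and Sema4c ran the other way. Sema5b had 22.3, 22.5 and 17.0 FPKM in the bFGF/EGF, 4.10, 6.65 and 6.27 in the bFGF/BMP4 and 0.800, 0.951 and 1.65 in the BMP4 libraries, with no overlap and a call at each step (-1.86 ± 0.27, limma adjusted p = 2.9e-04 for bFGF/BMP4 against bFGF/EGF, -2.26 ± 0.27, limma adjusted p = 2.5e-04 for BMP4 against bFGF/BMP4). Sema4c, a ligand of Plxnb2, was at 8.58, 8.49 and 6.05, then 1.22, 0.993 and 1.15, then 0.858, 0.766 and 0.792 FPKM and fell in both treated groups (-2.66 ± 0.19, limma adjusted p = 2.8e-06 and -3.09 ± 0.19, limma adjusted p = 7.7e-07). Of the 9 OPC genes, 7 (77.8%) were lower with bFGF/BMP4 and 8 (88.9%) with BMP4 than in the bFGF/EGF group. Of all genes tested, 14.1% and 15.4% were lower in these comparisons. The part of the OPC genes in the falls of Sema5b and Sema4c was not tested.

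Sema5a and Sema4d were highest in the bFGF/BMP4 group, like Sema3d and Sema3e. Sema5a, the close relative of Sema5b, had 1.06, 0.646 and 0.718 FPKM in the bFGF/EGF, 4.13, 3.63 and 4.91 in the bFGF/BMP4 and 0.600, 0.324 and 0.509 in the BMP4 libraries (2.27 ± 0.26, limma adjusted p = 7.2e-05 for bFGF/BMP4 against bFGF/EGF, -2.92 ± 0.26, limma adjusted p = 4.6e-05 for BMP4 against bFGF/BMP4). The bFGF/BMP4 libraries did not overlap with the others. Sema4d, a ligand of Plxnb1 known for inducing growth cone collapse, was at 1.37, 1.54 and 1.09, then 5.55, 5.78 and 6.19, then 1.86, 1.56 and 1.52 FPKM (2.06 ± 0.17, limma adjusted p = 8.8e-06 and -1.77 ± 0.17, limma adjusted p = 7.1e-05). Its exons overlap Secisbp2 on the opposite strand, whose means were 9.04, 6.19 and 6.22 FPKM, and without knowledge of strand in the counting the reads of such a pair cannot be told apart. Sema6a and Sema4b were lowest with BMP4. Sema6a, which binds Plxna2 and Plxna4, was at 20.5 ± 1.4, 25.2 ± 6.0 and 7.54 ± 2.5 FPKM, and Sema4b at 10.5 ± 2.5, 16.8 ± 3.7 and 3.78 ± 0.28 FPKM, with -1.75 ± 0.23, limma adjusted p = 5.1e-04 and -2.10 ± 0.21, limma adjusted p = 8.0e-05 for BMP4 against bFGF/BMP4. Sema4g rose in BMP4- against bFGF/EGF-treated NSCs (1.15 ± 0.18, limma adjusted p = 3.5e-04), from 2.59 to 5.93 FPKM, and overlaps Mrpl43 on the opposite strand, which was at 11.1, 9.64 and 10.6 FPKM in the 3 groups. Sema6c and Sema7a were not called.

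**Figure D3:**
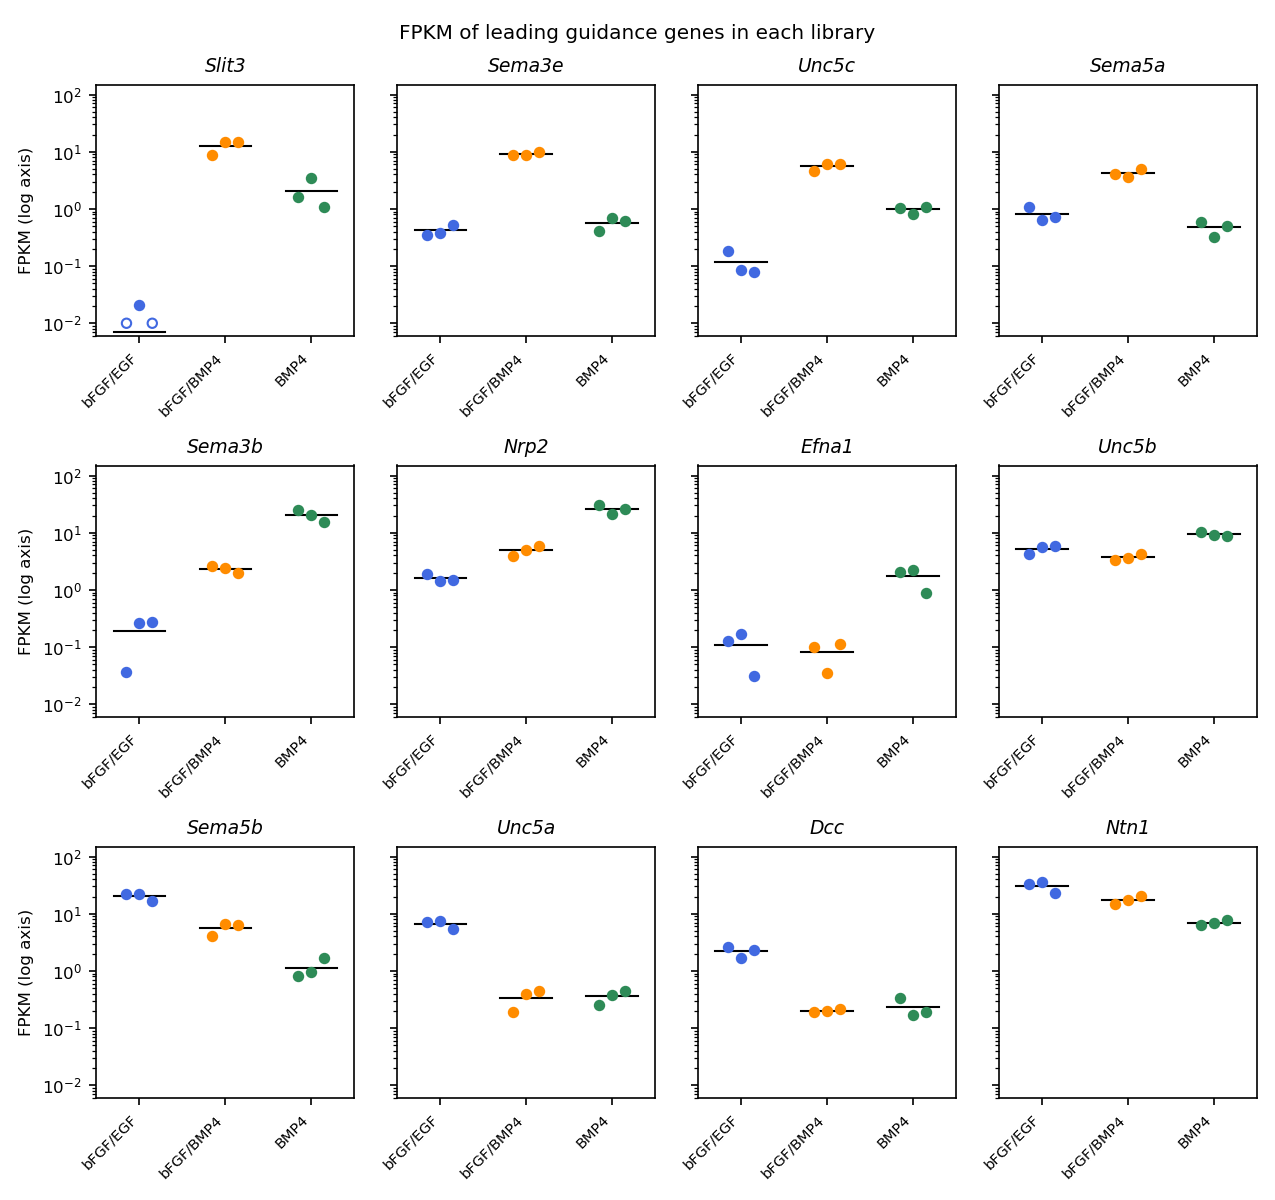
FPKM on a log axis of 12 guidance genes, with a point for each library and a line at the mean of each group of 3 (blue bFGF/EGF, orange bFGF/BMP4, green BMP4); open circles are libraries at 0 FPKM, drawn near the bottom of the axis. The top row held genes highest in bFGF/BMP4, the middle row genes with the highest mean in BMP4, and the bottom row genes with the highest mean in bFGF/EGF.

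The neuropilins parted between the treated groups. Nrp2 had 1.87, 1.42 and 1.48 FPKM in the bFGF/EGF, 3.87, 5.07 and 5.82 in the bFGF/BMP4 and 30.8, 21.7 and 26.4 in the BMP4 libraries, with no overlap and a call at each step (1.56 ± 0.19, limma adjusted p = 1.0e-04 for bFGF/BMP4 against bFGF/EGF, 2.40 ± 0.19, limma adjusted p = 2.3e-05 for BMP4 against bFGF/BMP4). Nrp1, the neuropilin of Sema3a, was at 1.92, 1.40 and 2.15, then 5.41, 7.53 and 8.07, then 4.10, 3.14 and 4.72 FPKM, and also rose in both treated groups (1.89 ± 0.22, limma adjusted p = 8.4e-05 and 1.09 ± 0.22, limma adjusted p = 0.0022), but its level was lower with BMP4 than with bFGF/BMP4, by less than 2-fold (-0.80 ± 0.22, limma adjusted p = 0.031). Its fold change between BMP4 and bFGF/EGF was under 2 without bFGF/EGF replicate 2 or without BMP4 replicate 3 (0.92 and 0.96 on the log2 scale). Nrp1 made up 58.7% of the summed neuropilin level in the bFGF/BMP4 group, and Nrp2 86.8% in the BMP4 group.

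Plexins were abundant in every group, with summed levels of 132 ± 11 FPKM at day 0, 118 ± 7.9 with bFGF/BMP4 and 142 ± 30 with BMP4. Plxnb2, which is needed for the proliferation and migration of SVZ neuroblasts, was the highest plexin in every group, at 63.8, 69.7 and 51.3 FPKM in the bFGF/EGF, 36.5, 37.7 and 40.0 in the bFGF/BMP4 and 66.8, 48.2 and 67.3 in the BMP4 libraries. The bFGF/BMP4 libraries were below all others, by under 2-fold (-0.68 ± 0.16, limma adjusted p = 0.0056 against bFGF/EGF). Plxnb3, at a lower level, was the single guidance gene called lowest in the bFGF/BMP4 group, beside 1.91% of all genes tested: 1.30, 1.11 and 0.941, then 0.422, 0.361 and 0.283, then 1.21, 0.932 and 1.24 FPKM (-1.42 ± 0.24, limma adjusted p = 8.3e-04, and 1.43 ± 0.24, limma adjusted p = 0.002 for BMP4 against bFGF/BMP4). Plxnd1, the receptor of Sema3e, was at 7.62, 8.92 and 8.22, then 5.75, 4.60 and 4.48, then 19.3, 11.5 and 11.4 FPKM, so it was lowest in the libraries where Sema3e was highest, and it was called higher with BMP4 than with bFGF/BMP4 (1.45 ± 0.20, limma adjusted p = 6.9e-04). Plxna4 rose in both treated groups, from 1.19 ± 0.18 to 4.52 ± 1.3 and 5.42 ± 1.5 FPKM (1.81 ± 0.27, limma adjusted p = 4.0e-04 and 2.07 ± 0.27, limma adjusted p = 1.3e-04), and Plxnb1 rose with BMP4 from 11.8 ± 0.39 to 26.3 ± 6.3 FPKM (1.12 ± 0.17, limma adjusted p = 2.7e-04). Plxna2 fell with BMP4, from 7.64 ± 1.3 to 3.19 ± 0.94 FPKM (-1.27 ± 0.25, limma adjusted p = 0.0017). Plxna1 was at 29.1 ± 1.8, 35.8 ± 4.1 and 18.1 ± 4.6 FPKM and was called lower with BMP4 than with bFGF/BMP4 (-1.01 ± 0.18, limma adjusted p = 0.0028), a fold change that was under 2 without bFGF/BMP4 replicate 3 or BMP4 replicate 2 (-0.93 and -0.79 on the log2 scale). Plxna3 and Plxnc1, the receptor of Sema7a, were not called.

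Slit3 was not detected in bFGF/EGF-treated NSCs and was called higher in both treated groups. It had 0, 2 and 0 fragments in the bFGF/EGF libraries, and 8.69, 14.7 and 14.7 FPKM in the bFGF/BMP4 and 1.63, 3.54 and 1.06 FPKM in the BMP4 libraries. Against the bFGF/EGF group, where it was not detected, its mean was at least 412-fold higher in the bFGF/BMP4 group (limma adjusted p = 7.3e-07) and at least 67.5-fold higher in the BMP4 group (limma adjusted p = 1.2e-05). The BMP4 libraries did not overlap with the bFGF/BMP4 libraries, and the difference between them was -2.68 ± 0.39, limma adjusted p = 8.5e-04. Slit3 lies on chromosome 11 of GRCm39 from 35011789 to 35602786, on the plus strand. Slit1, found mainly in the nervous system, was highest where Slit3 was not detected: 5.22, 6.43 and 4.17 FPKM in the bFGF/EGF, 2.56, 2.60 and 3.04 in the bFGF/BMP4 and 0.957, 0.636 and 1.02 in the BMP4 libraries. It fell in BMP4-treated NSCs against both other groups (-2.47 ± 0.22, limma adjusted p = 8.6e-06 and -1.56 ± 0.22, limma adjusted p = 6.8e-04), and its difference between bFGF/BMP4 and bFGF/EGF was under 2-fold (-0.90 ± 0.22, limma adjusted p = 0.0067), reaching -1.06 without bFGF/EGF replicate 3. Slit2 was at most 0.172 FPKM in any library and was not called. Slit1 made up 98.5% of the summed Slit level in the bFGF/EGF group, and Slit3 81.7% with bFGF/BMP4 and 67.9% with BMP4.

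Of the 3 Robo receptors tested, Robo2 was called higher in both treated groups and Robo1 with bFGF/BMP4. Robo2 had 1.09, 0.983 and 1.31 FPKM in the bFGF/EGF, 4.01, 3.62 and 3.97 in the bFGF/BMP4 and 5.001, 3.62 and 6.46 in the BMP4 libraries and rose in both (1.70 ± 0.21, limma adjusted p = 1.1e-04 and 2.03 ± 0.21, limma adjusted p = 2.5e-05). Robo1 was at 1.69, 1.95 and 1.59, then 3.62, 5.07 and 4.45, then 2.68, 2.10 and 3.51 FPKM. It rose with bFGF/BMP4 (1.27 ± 0.21, limma adjusted p = 6.9e-04), and its difference with BMP4 was under 2-fold (0.61 ± 0.21, limma adjusted p = 0.032). Robo3 was not called and was at most 0.203 FPKM, and Robo4, the Robo of endothelial cells, at most 0.267 FPKM in any library. Robo4 was not tested.

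The summed netrin level was 67.0 ± 6.7 FPKM in the bFGF/EGF group, 35.4 ± 4.6 with bFGF/BMP4 and 19.8 ± 2.2 with BMP4 (SD, n = 3), and Ntn4 and Ntn1 were the leading members in every group. Ntn1, the ligand of Dcc and the Unc5 receptors, had 33.1, 36.0 and 22.9 FPKM in the bFGF/EGF, 14.8, 17.4 and 20.1 in the bFGF/BMP4 and 6.32, 6.92 and 7.82 in the BMP4 libraries. The groups did not overlap. The fall with BMP4 was called against both other groups (-2.09 ± 0.18, limma adjusted p = 8.0e-06 and -1.29 ± 0.18, limma adjusted p = 7.3e-04), and the difference between bFGF/BMP4 and bFGF/EGF was under 2-fold (-0.80 ± 0.18, limma adjusted p = 0.0051). Ntn4, a netrin of basement membranes that binds laminin, was at 30.6, 34.0 and 34.3, then 12.1, 13.5 and 16.8, then 8.99, 10.7 and 11.3 FPKM and fell in both treated groups (-1.23 ± 0.14, limma adjusted p = 7.2e-05 and -1.67 ± 0.14, limma adjusted p = 6.6e-06). Ntn3 was not called, and its exons overlap Tbc1d24 on the same strand, so its level of 3.26, 3.81 and 2.44 FPKM is uncertain. Ntn5 had at most 3 fragments in any library.

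The leading netrin receptor differed between the groups. Unc5a had 7.28, 7.48 and 5.49 FPKM in the bFGF/EGF, 0.194, 0.391 and 0.440 in the bFGF/BMP4 and 0.251, 0.385 and 0.451 in the BMP4 libraries. Dcc was at 2.61, 1.69 and 2.31, then 0.194, 0.198 and 0.212, then 0.337, 0.169 and 0.193 FPKM. Both fell in bFGF/BMP4- (-3.99 ± 0.29, limma adjusted p = 3.9e-06 for Unc5a, -2.92 ± 0.29, limma adjusted p = 2.6e-05 for Dcc) and in BMP4-treated NSCs (-3.90 ± 0.29, limma adjusted p = 3.0e-06 and -2.80 ± 0.29, limma adjusted p = 2.3e-05), and for both genes the treated groups overlapped with each other. Unc5c, in contrast, had 0.184, 0.0859 and 0.0799 FPKM in the bFGF/EGF, 4.67, 6.10 and 6.02 in the bFGF/BMP4 and 1.03, 0.826 and 1.09 in the BMP4 libraries, with no overlap among the groups. It rose in both (4.74 ± 0.25, limma adjusted p = 4.8e-07 and 2.34 ± 0.25, limma adjusted p = 3.0e-05) and was lower with BMP4 than with bFGF/BMP4 (-2.40 ± 0.25, limma adjusted p = 1.1e-04). Unc5b, the receptor best known from blood vessel sprouting, had its highest level with BMP4: 4.25, 5.59 and 5.88, then 3.35, 3.59 and 4.23, then 10.2, 9.28 and 8.89 FPKM, a call against bFGF/BMP4 (1.33 ± 0.16, limma adjusted p = 2.3e-04) and a difference under 2-fold from bFGF/EGF (0.85 ± 0.16, limma adjusted p = 0.0011). Unc5a accounted for 46.8% of the summed level of Dcc and the Unc5 receptors in the bFGF/EGF group, Unc5c for 55.1% in the bFGF/BMP4 group and Unc5b for 85.0% in the BMP4 group. Unc5d was not called (0.110, 0.289 and 0.0930 FPKM).

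**Figure D4:**
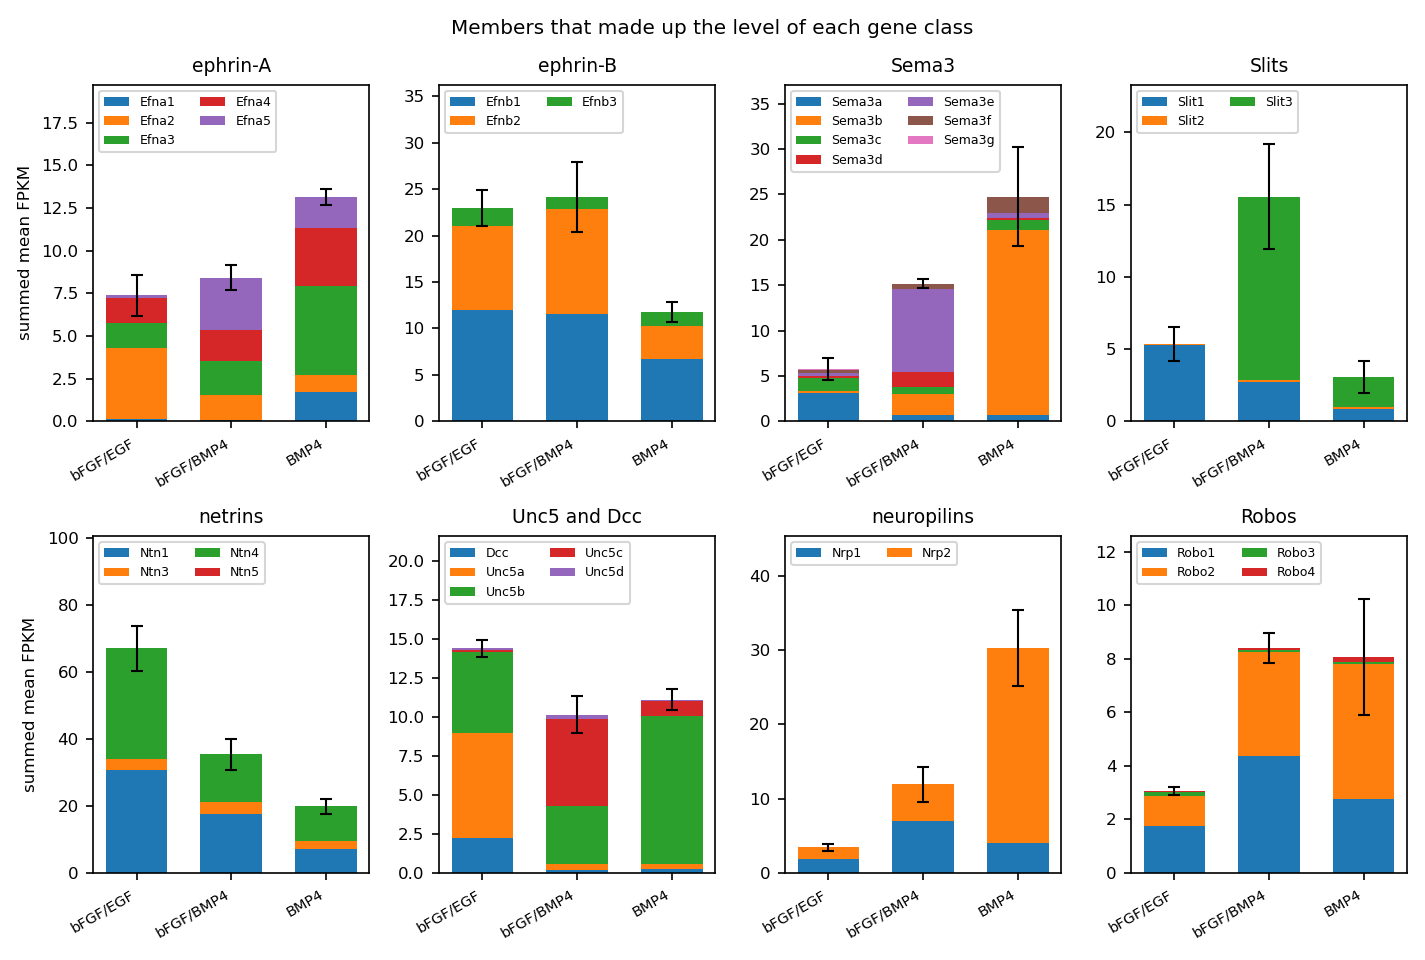
Mean FPKM of each member, stacked within 8 classes of guidance genes, for the 3 groups (axes differ between panels and start at 0); error bars are the SD of the summed level over 3 libraries. The member with the highest mean changed between groups in the ephrin-A, Sema3, Slit, Unc5 and Dcc, neuropilin, Robo and netrin panels, and Efnb1 led the ephrin-B panel throughout.

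Genes called against both other groups sum up these profiles. The bFGF/EGF group was highest for 8 guidance genes, beside 10.7% of all genes tested: Efna2, Epha2, Sema3a, Sema4c, Sema5b, Ntn4, Dcc and Unc5a. The bFGF/BMP4 group was highest for 6, beside 2.01% of all genes: Sema3d, Sema3e, Sema4d, Sema5a, Slit3 and Unc5c. With BMP4 the 6 highest, beside 6.01% of all genes, were Efna1, Efna3, Epha10, Sema3b, Sema3f and Nrp2. It was lowest for 6 others, beside 2.75% of all genes: Efnb2, Sema4b, Sema5b, Sema6a, Slit1 and Ntn1. The bFGF/EGF group was lowest for 16, beside 12.7% of all genes, among them Epha4, Epha5, Ephb4, Ephb6, Efna5, Nrp1, Nrp2, Robo2 and Plxna4. In all, 45 of the 62 genes tested passed the threshold in at least 1 comparison, beside 44.7% of all genes tested.

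The remaining guidance genes were low or changed little. The 7 genes that were not tested were Epha1, Epha6, Epha8, Sema3g, Sema4f, Robo4 and Ntn5, and the highest group mean among them was 0.181 ± 0.075 FPKM, of Robo4 with BMP4. Together with Epha3, Epha7, Robo3, Slit2 and Unc5d they formed the 12 genes whose highest group mean was under 0.5 FPKM. Epha1 overlaps Zyx on the opposite strand, which was at 27.7 FPKM in the bFGF/EGF group, so its few fragments are uncertain. At the other end, 19 genes had a group mean of at least 10 FPKM, led by Sema6d, Plxnb2, Plxna1, Ntn4 and Ntn1. Efnb1, Plxnb2 and Ephb3 belonged to the 17 genes that were tested and called in no comparison. Leaving out 1 library brought some further differences past the threshold. In bFGF/BMP4 against bFGF/EGF these were Ephb1 without bFGF/BMP4 replicate 2 or 3 (-1.08 and -1.02), Ephb2 without bFGF/BMP4 replicate 1 or bFGF/EGF replicate 2 (1.22 and 1.01), Sema3c without bFGF/EGF replicate 2 (-1.16) and Unc5d without bFGF/BMP4 replicate 3 (1.020). In BMP4 against bFGF/EGF they were Efnb1 without BMP4 replicate 3 (lower, at the 2-fold limit) and Sema7a without BMP4 replicate 2 (-1.06), and in BMP4 against bFGF/BMP4 Efna4 without bFGF/BMP4 replicate 1 or 2 (1.04 and 1.10) and Sema4g without bFGF/BMP4 replicate 1 or BMP4 replicate 2 (1.10 and 1.13), all as log2 differences.

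Other genes of guidance and of the signalling below these receptors were read from lists. Of 34 other guidance ligands and receptors tested, 13 were higher and 5 lower in bFGF/BMP4- than in bFGF/EGF-treated NSCs, or 38.2% and 14.7%, beside 16.5% and 14.1% of all genes tested, with a median log2 difference of 0.50. The same numbers, 13 and 5, held for BMP4 against bFGF/EGF (median 0.35), beside 21.3% and 15.4% of all genes. In BMP4 against bFGF/BMP4, 6 (17.6%) were higher and 7 (20.6%) lower, beside 8.41% and 5.14% (median 0.09). L1cam, an adhesion molecule of growing axons, rose from 0.106 ± 0.034 to 7.10 ± 0.73 and 11.99 ± 1.7 FPKM, and Reln, the matrix protein reelin, from 0.506 ± 0.058 to 4.21 ± 0.39 and 18.1 ± 5.7. Cxcr4, the receptor of the chemokine CXCL12, was at 6.19 ± 2.8, 1.37 ± 0.89 and 24.9 ± 4.6 FPKM. Chl1, a relative of L1cam, was at 4.14 ± 1.0, 9.47 ± 1.0 and 1.36 ± 0.30 FPKM.

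The effectors are read against the same shares of all genes: 16.5% higher and 14.1% lower in bFGF/BMP4 against bFGF/EGF, 21.3% and 15.4% in BMP4 against bFGF/EGF, and 8.41% and 5.14% in BMP4 against bFGF/BMP4. Of 30 Eph and ephrin effectors tested, 4 (13.3%) were higher and 6 (20%) lower in bFGF/BMP4 against bFGF/EGF (median -0.12), 5 (16.7%) and 7 (23.3%) in BMP4 against bFGF/EGF (median -0.32), and 2 (6.67%) and 5 (16.7%) in BMP4 against bFGF/BMP4 (median -0.05). Adam12, a metalloprotease, was at 44.2 ± 2.6, 52.3 ± 13 and 2.51 ± 0.45 FPKM (-4.31 ± 0.19, limma adjusted p = 1.2e-06 for BMP4 against bFGF/BMP4). Chn2, a Rac GTPase-activating protein, was at 11.9 ± 0.54, 5.81 ± 0.71 and 1.53 ± 0.25 FPKM. Of 29 semaphorin and plexin effectors, 3 (10.3%) were higher and 7 (24.1%) lower in bFGF/BMP4 against bFGF/EGF (median -0.17), and 4 (13.8%) and 6 (20.7%) in BMP4 against bFGF/EGF (median -0.10). In BMP4 against bFGF/BMP4, 4 (13.8%) were higher and 0 lower (median -0.17). Dpysl5 and Crmp1, collapsin response mediator proteins, had their lowest means with bFGF/BMP4 (0.479 ± 0.0067 and 2.29 ± 0.069 FPKM). Of 31 Slit and netrin effectors, 6 (19.4%) were higher and 6 (19.4%) lower in bFGF/BMP4 against bFGF/EGF (median -0.22), 8 (25.8%) and 6 (19.4%) in BMP4 against bFGF/EGF (median 0.13), and 7 (22.6%) and 1 (3.23%) in BMP4 against bFGF/BMP4 (median 0.01). Pak1, a kinase activated by Rac and Cdc42, was at 15.4 ± 0.77, 3.18 ± 0.41 and 10.2 ± 1.1 FPKM. Tubb3, on this list and on that of neurons, was at 20.3 ± 4.0, 17.0 ± 3.3 and 145 ± 40 FPKM.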

How the data were processed

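The data were 9 RNA-seq libraries of NSCs, 3 of each group, with groups and replicate numbers taken from the labels. Per the submitters' processing notes, reads were cleaned with fastp 0.19.7 and aligned with HISAT2 2.0.5 to build mm39, and featureCounts 1.5.0-p3 is named. The annotation release, the use of strand in counting and the program that computed FPKM are not given in the sources used here. The authors deposited FPKM values for 55704 genes in 1 table. Of 55414 Ensembl identifiers, 54749 were given a symbol with GENCODE vM39, and all 69 symbols of the guidance families in that annotation had a row. FPKM values were whole multiples of what 1 fragment is worth for all 30860 genes above 0 (tolerance 0.02), which gave fragment numbers per library. The library constant behind them was 0.945 to 1.102 times the fragments on genes.

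The unit is FPKM and not counts, so limma 3.58.1 (R 4.3.3) with a trend was fitted on log2(FPKM + 0.1) to all 9 libraries, for 20207 genes with a mean of at least 0.1 FPKM, with Benjamini-Hochberg adjustment over all of them. Tables and figures used Python 3.11.15, pandas 2.3.3, numpy 2.4.6 and matplotlib 3.10.9. Calls needed an adjusted p no higher than 0.05 and at least a 2-fold change. On simulated data for bFGF/BMP4 against bFGF/EGF with 20154 genes, 91.5% of 200 changed genes and 11 unchanged genes were called. The changed genes were all set past the 2-fold limit and drawn from genes that were not low in fragments. The spread between simulated replicates was set rather than taken from these libraries. This share therefore does not measure the recovery of genes near the limit or with few fragments. Replicates of a group correlated at 0.950 to 0.964 over log2 values, and libraries of different groups at most at 0.915.

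The members, the lists of markers and effectors, the motifs and the tests were chosen with earlier results of these data known. Genes named by rule were, in each class, the gene with the highest mean FPKM and the genes with the largest called change in each comparison, and other members were named after their values had been seen, to account for every gene. Each result was repeated without a filter, with a filter of 1 FPKM, with a pseudocount of 1, on the TPM scale, with median-ratio scaling, with limma-voom on the fragment numbers, with a replicate block, on only the groups compared, without the fold threshold, and with each library left out in turn. Some genes of the effector lists are counted but not reported by name here.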

Additional observations from a re-analysis of the deposited data

How the results depend on the processing

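Of 88 calls of guidance genes in the 3 comparisons, 64 passed the threshold in all 17 alternatives and 7 in the 16 that tested them, since genes with a mean under 1 FPKM were not tested with that filter. The other 17 were lost with a pseudocount of 1, some of them in further settings, and none turned direction. The genes higher in BMP4 than in bFGF/BMP4 numbered 9, and 5 with a mean of at least 1 FPKM, which tests fewer genes, and 14 without a fold threshold. The genes highest in BMP4 numbered 6, with 3 and 11 under the same settings. The single gene lowest in bFGF/BMP4 was lost with a pseudocount of 1 (0 genes) and with a mean of at least 1 FPKM (0 genes), and 5 genes had that profile without a fold threshold. The genes lower in bFGF/BMP4 than in bFGF/EGF numbered 9, and 18 without a fold threshold. Leaving out 1 library at a time moved no count of calls by over 1.5 times: the genes highest in BMP4 numbered 4 to 7, and those higher in BMP4 than in bFGF/BMP4 7 to 10. Samples with the same replicate number did not deviate together: the correlation of their deviations was -0.212 to 0.222 and above 0.1 in 2 of 9 pairs. With a replicate block, 21 genes were higher and 9 lower in bFGF/BMP4 than in bFGF/EGF, 22 and 14 in BMP4 than in bFGF/EGF, and 8 and 13 in BMP4 than in bFGF/BMP4, where Epha10 was the call lost (adjusted p = 0.069, limma). With at most 3 fragments, as for Slit3 in the bFGF/EGF group, only a lower bound of a fold change can be given.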
